A study of Mus musculus with 18 samples.

Results

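Rpl7l1, the gene of ribosomal protein L7-like 1, was followed in mouse embryonic fibroblasts (MEFs) that express a doxycycline-inducible dCas9. It is 1 of 47937 gene IDs in the deposited count table and 1 of the 16216 genes with enough reads to be tested. The gene was chosen by its change in 2 comparisons of these same data, higher after induction of the control line and not in the repressor line, so its values in those lines are given below as a description, without a test. Its change in the activator line played no part in that choice and was tested. Its paralogue Rpl7 and the annotated genes within 100 kb of it on chromosome 17 are given as context.

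dCas9 is the nuclease Cas9 made unable to cut, which still finds the DNA its guide matches and can bring a fused protein there. The study asked what changing the transcription of the major satellite repeat (MSR), the tandem repeat at mouse pericentromeres, does to repeats elsewhere in the genome, and its labels name these repeats as the target of every line. The groups were dCas9-control cells induced with 10 ng/ml doxycycline for 24 h and the same line uninduced, that is untreated, dCas9-KM repressor cells induced with 100 ng/ml for 24 h and the same line untreated, and dCas9-VPR activator cells induced with 10 ng/ml for 6 h and the same line untreated. All lines were grown with hygromycin in serum free of tetracycline, and each of the 6 groups had 3 total RNA libraries. The induced control cells got the same doxycycline dose as the induced activator cells for a longer time and a lower dose than the induced repressor cells for the same time. Effector, dose, time and line therefore cannot be told apart in a comparison between lines. Replicates are numbered in the labels with no word on whether the cultures were separate, so p-values measure the spread between libraries only, which may be technical. Whether a line was 1 clone or a mixed population is not stated in the sources used here.

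The libraries held 14928765 to 25262912 counts. Of 10 fibroblast markers 8 reached 1 CPM, a read count scaled to a common library size, in every group, with a summed level of 19500 to 25100 CPM, whereas Thy1 was at 0 counts in 5 of the 6 groups. Immune markers summed to at most 5.53 CPM, epithelial markers to at most 0.931 CPM and pluripotency markers to at most 1.52 CPM. Endothelial markers summed to 19.2 to 24.1 CPM in the induced activator libraries and to at most 1.25 CPM in the others. Only 1 of these 4 markers averaged 1 CPM or more in induced activator cells, so most of that sum came from 1 gene. In the other groups 0 of the 4 did. The part of these markers in the results on that line was not tested. In such bulk RNA, fewer cells of a type and less RNA per cell cannot be told apart.

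RPL7L1 resembles RPL7, a structural protein of the large ribosomal subunit that binds rRNA in finished ribosomes. Its relative in budding yeast, Rlp7, is not part of finished ribosomes: it sits on the nascent large subunit in the nucleolus and is needed for processing the internal spacer of the pre-rRNA. In mouse, Rpl7l1 is needed in early embryos.

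Rpl7l1 lies on the minus strand of chromosome 17 at chr17:46773907-46782672 (mm10) as a protein-coding gene with 3495 exonic bases. The sequence before and 3 bases past its RefSeq start site (GRCm38.p6, chr17:46782654-46782906, minus strand, 5′ to 3′) is shown because it is the promoter of the gene that the values below follow. The capitals mark the only match to the core of the NRF1 motif, GCGC NN GCGC without the spaces, which begins 7 bases before the start and crosses it.

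Rpl7l1: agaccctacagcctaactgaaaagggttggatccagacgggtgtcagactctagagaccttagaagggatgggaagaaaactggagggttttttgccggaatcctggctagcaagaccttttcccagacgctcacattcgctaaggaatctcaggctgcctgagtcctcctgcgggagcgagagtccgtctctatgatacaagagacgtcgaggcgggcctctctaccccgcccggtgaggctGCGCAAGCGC

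Searched on both strands, this NRF1 core was found in 6.23% of 32851 promoter windows reaching from 250 bases before to 50 bases after a start, and in 5% of the 40 windows of large-subunit proteins. AAGATGG, a core of the YY1 motif, was matched once in the Rpl7l1 window, 22 bases after the start, and in 6.34% of all windows and 15% of the large-subunit ones. The window held no TATAAA (13.6% of all windows), no CCAAT (37.4%), no CACGTG (7.15%), no CCGGAAG (8.86%) and no TGACG (20.8%). To look for the repeat that dCas9 was aimed at, 15-base words were taken from 2 transcripts of Gm26870, an annotated gene whose best transcript is identical to itself at 95.9% of positions when shifted by 234 bases, the best shift from 100 to 300 bases, against 26.5% when shifted by 200 bases. None of these words occurred in the Rpl7l1 window or in its 4 annotated transcripts, while 18 of the 32851 windows held at least 1. These matches describe the letters only.

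In the control line Rpl7l1 had 168.1, 159.8 and 158.2 CPM in the induced libraries, against 123.9, 130.5 and 121.0 CPM in the untreated libraries. All 3 induced libraries lay above all 3 untreated ones. For 15.5% of the tested genes the groups of this line did not overlap, in 1 direction or the other. These levels rest on 10697 counts in the induced and 7512 counts in the untreated group. The mean was 162 ± 5.31 CPM in induced and 125 ± 4.85 CPM in untreated control cells (SD, n = 3 each), a fitted log2 fold change of 0.37 (SE 0.031), or 1.29-fold. These are the values that chose the gene.

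In the repressor line the induced libraries had 125.2, 123.3 and 121.3 CPM and the untreated libraries 127.5, 126.1 and 122.6 CPM. The groups overlapped, whereas 26.7% of tested genes had groups that did not. The means were 123 ± 1.94 CPM in induced and 125 ± 2.5 CPM in untreated repressor cells (SD, n = 3 each), with a log2 fold change of -0.03 (SE 0.033). The log2 fold change of the repressor line minus that of the control line was -0.395, in a comparison with 2.73% of tested genes called. The induced repressor group was below the induced control group, with a log2 difference of -0.394, whereas the untreated repressor and control groups differed by 0.000598.

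In the activator line Rpl7l1 had 149.5, 147.4 and 143.7 CPM in the induced libraries, against 135.0, 138.0 and 133.0 CPM in the untreated libraries. All induced libraries lay above all untreated ones. The mean was 147 ± 2.95 CPM in induced and 135 ± 2.54 CPM in untreated activator cells (SD, n = 3 each). The log2 fold change was 0.12 (SE 0.032, 95% interval 0.0469 to 0.186), or 1.08-fold, and edgeR's quasi-likelihood test gave a Benjamini-Hochberg adjusted p of 0.000767. An exact two-sided permutation test of the CPM gave p = 0.1, the smallest that 3 against 3 libraries allow. In this comparison 75.3% of all tested genes passed the same threshold and 76.3% had groups that did not overlap, so such a call was the common outcome there.

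The direction of this change depended on scaling. Rpl7l1 was higher in induced cells with TMM, DESeq2 size factors or upper quartiles and in DESeq2 and limma-voom, but lower with total counts, at a log2 fold change of -0.107, and with scaling to mitochondrially encoded genes, at -0.626. The same scalings moved the median of all tested genes in this comparison to -0.219 and -0.739, against 0.00416 with TMM, the scaling used throughout. These scalings move every gene of a comparison by about the same amount, so Rpl7l1 stayed above that median by construction. Its place there is therefore no separate sign of a rise. The activator change minus the control change was -0.252, where 63.7% of tested genes were called. The TMM factors were 0.8522 to 0.9046 in the induced activator libraries and 1.011 to 1.051 in all others.

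**Figure D1:**
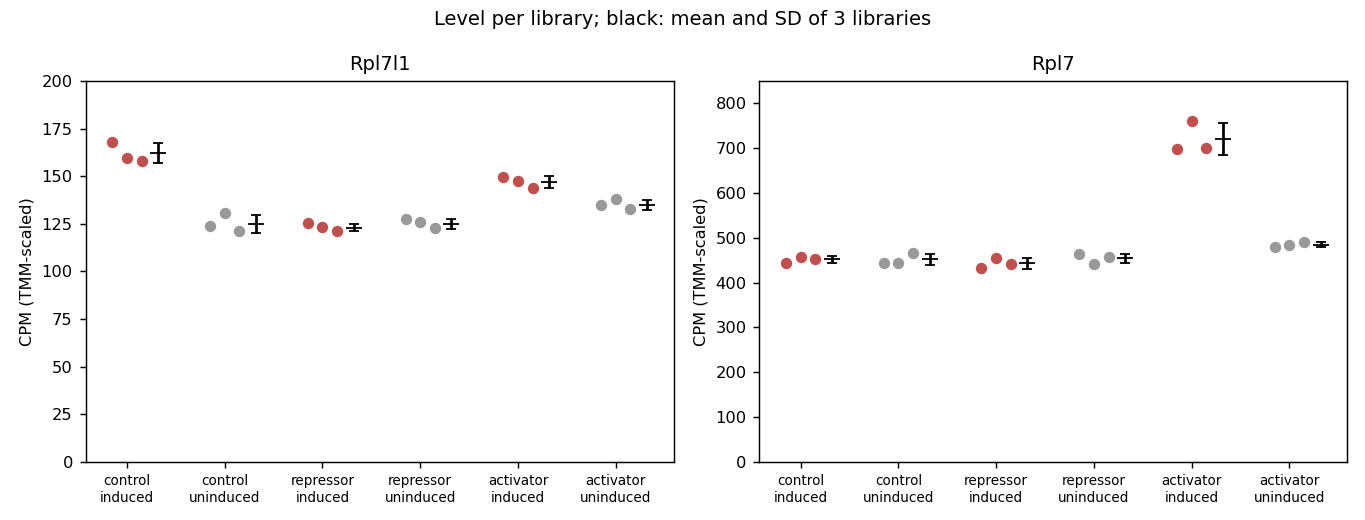
CPM of Rpl7l1 (left) and its paralogue Rpl7 (right) in each of the 18 libraries, by group, with the mean and SD of 3 libraries in black and the axis starting at 0. Rpl7l1 stood at 158.2 to 168.1 CPM in the induced control libraries, above all other groups, whereas Rpl7 stood apart in the induced activator libraries at 697.7 to 761.1 CPM.

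Over the 6 groups the level of Rpl7l1 was highest in induced control cells, then in induced activator, untreated activator, untreated repressor, untreated control and induced repressor cells. Each of the first 3 groups had every library above every library of the groups after it, and the last 3 overlapped. How many of all tested genes separate in such a way across the lines was not counted. The order also holds the values that chose the gene, so it is a description. Untreated activator cells were above untreated control cells by a log2 difference of 0.111, a comparison in which 19.5% of tested genes passed the threshold; with mitochondrial scaling it was 0.0332. CPM per kb of exon were 46.4 ± 1.52 in induced and 35.8 ± 1.39 in untreated control cells (SD, n = 3 each).

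In the control induction 41 genes were called higher (0.253% of those tested) and 34 lower (0.21%) at an adjusted p below 0.05, and 1741 had an unadjusted p below 0.05. Rpl7l1, chosen on this comparison, was the 5th of the 41 by log2 fold change. In all, 835 tested genes had a larger log2 fold change, but none of them was among the 1401 genes whose mean CPM was at least that of Rpl7l1. The next in that abundant set were Ccn2 at 0.227, which encodes a secreted matricellular protein, Rmrp at 0.181, the RNA of an endonuclease that acts on pre-rRNA, and Ccn1 at 0.163. Ccn2 had 0.846 in the repressor induction. Of the 41 genes called higher, 19 were not called in the repressor induction, and for 5 of these the difference between both inductions was itself called.

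The count of 75 genes called in the control induction moved with single libraries. It was 36 and 37 without induced control replicate 2 and 3, 35, 49 and 38 without untreated control replicate 1, 2 and 3, and 117 and 160 without induced activator replicate 1 and 3. The log2 fold change of Rpl7l1 lay between 0.343 and 0.402 over all 18 leave-outs.

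**Figure D2:**
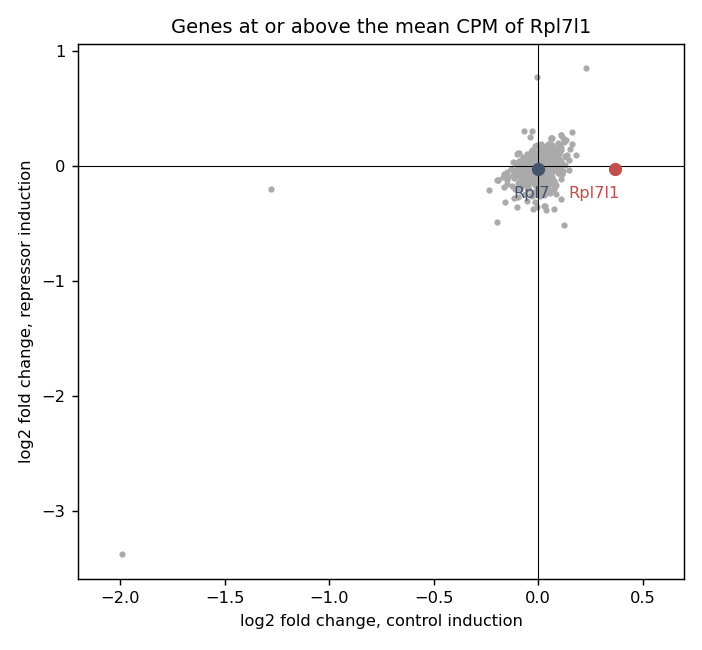
Log2 fold change on induction of the control line (horizontal) and of the repressor line (vertical) for genes whose mean CPM was at least that of Rpl7l1, 1 point a gene. Rpl7l1 lies at 0.37 and -0.03, to the right of every other gene, and Rpl7 lies near the origin; the point at the lower left is Gm10800, at -1.99 and -3.38.

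Rpl7 did not pass the test in the control line. It had 443.4, 458.2 and 453.3 CPM in induced and 444.8, 444.2 and 465.7 CPM in untreated control libraries, and the groups overlapped. Its log2 fold change was 0.0013 with a 95% interval of -0.0597 to 0.0623 (edgeR quasi-likelihood test, Benjamini-Hochberg adjusted p = 1.0), and an exact permutation test of the CPM gave p = 1.0. The point estimate changed sign with DESeq2 size factors and with mitochondrial scaling, at -0.00344 and -0.037.

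In the repressor line Rpl7 had 432.4, 455.7 and 442.1 CPM in induced and 462.7, 441.7 and 456.7 CPM in untreated libraries, which overlapped. The log2 fold change was -0.03 with an interval of -0.0937 to 0.0289 (edgeR adjusted p = 0.569, exact permutation p = 0.3), where 9.81% of all tested genes were called. In the activator line the paralogue had 697.7, 761.1 and 700.0 CPM in induced and 479.1, 485.0 and 490.7 CPM in untreated libraries. It rose by a log2 fold change of 0.57 (SE 0.028, edgeR adjusted p = 2.24e-32) without overlap, except that scaling to mitochondrially encoded genes turned it to -0.171.

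The number of Rpl7l1 counts per Rpl7 count within a library does not depend on how the library is scaled; it is not corrected for length. In the control line it was 0.379, 0.349 and 0.349 in induced and 0.278, 0.294 and 0.26 in untreated libraries, a log2 difference of 0.373. In the repressor line it averaged 0.278 ± 0.01 in induced and 0.276 ± 0.0085 in untreated cells (SD, n = 3 each), a log2 difference of 0.00819. Both are descriptions, since they hold the values that chose the gene. In the activator line the ratio was 0.214, 0.194 and 0.205 in induced libraries, against 0.282, 0.285 and 0.271 in untreated libraries. It was lower in all induced libraries, by a log2 difference of -0.45, and the exact two-sided permutation test gave p = 0.1, the smallest possible. The 3 untreated groups had ratios of 0.26 to 0.294, with overlap between the lines.

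**Figure D3:**
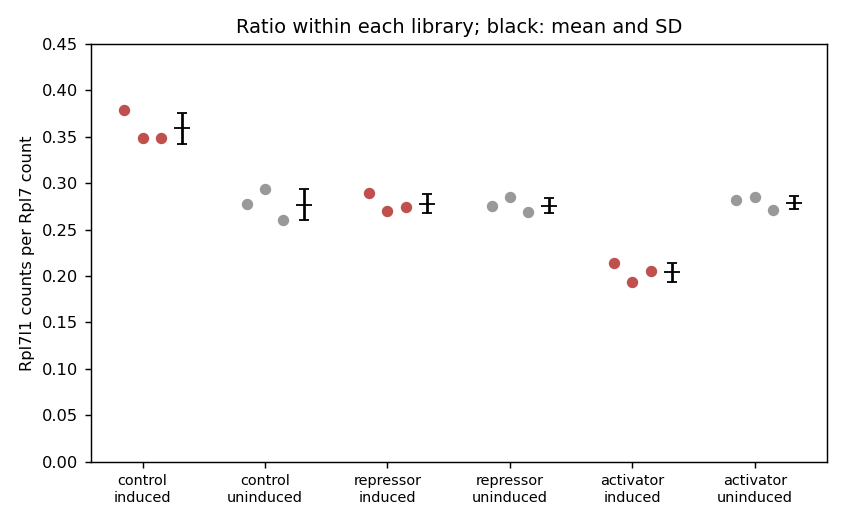
Counts of Rpl7l1 per count of Rpl7 in each library, by group, with the mean and SD of 3 libraries in black. The ratio was highest in induced control libraries, at 0.349 to 0.379, and lowest in induced activator libraries, at 0.194 to 0.214, with the other 4 groups between 0.26 and 0.294.

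Reads shared between copies were looked for in the annotated transcripts. Of 3481 distinct 50-base words of Rpl7l1, 235 (6.75%) also occurred in some of 520 other genes, so the split of counts over these words is uncertain. Of the words of Rpl7l1, 0 occurred in Rpl7 and 0 in the processed pseudogene Rpl7l1-ps1 on the X chromosome, which had at most 1 count in any library. Of 2825 words of Rpl7, 594 (21%) occurred in 13 other genes, so the split of Rpl7 counts between these copies is uncertain.

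The neighbourhood was read from 11 annotated genes within 100 kb, of which 9 were tested. None of the 9 was called in the control induction by edgeR or limma-voom, where edgeR called 0.463% of all tested genes; DESeq2 called 0, giving no adjusted p for 7 of them. At an unadjusted p below 0.05, edgeR had 2, Mea1 and 2310039H08Rik, beside 1741 of all 16216 tested genes. The nearest tested gene, 2310039H08Rik, runs towards Rpl7l1 on the opposite strand and ends 511 bases from it. It averaged 6.72 ± 0.859 CPM in induced and 7.99 ± 0.908 CPM in untreated control cells (SD, n = 3 each), a log2 fold change of -0.22 with an interval of -0.458 to 0.0146 (edgeR adjusted p = 0.448). On the other side, at a distance of 15448 bases, Bicral, a subunit of a chromatin remodeller of the SWI/SNF family, averaged 32.7 ± 1.33 CPM in induced and 34.5 ± 2.55 CPM in untreated control cells (SD, n = 3 each), a log2 fold change of -0.08 (edgeR adjusted p = 0.643).

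Ppp2r5d, a regulatory subunit of protein phosphatase 2A, had 143 ± 2.83 CPM in induced and 146 ± 1.56 CPM in untreated control cells (SD, n = 3 each), a log2 fold change of -0.03 (interval -0.102 to 0.0346). Mea1 had 0.18 (edgeR adjusted p = 0.414), and its body overlaps those of Klhdc3 and Ppp2r5d on the opposite strand, so counts of these 3 are uncertain where strand was not used in counting. Klhdc3, a substrate receptor of a ubiquitin ligase, had 0.0152, the peroxisomal ATPase gene Pex6 0.02, Rrp36, which acts in rRNA processing, -0.0508, and Cnpy3, a chaperone cofactor of Toll-like receptors, -0.0786. Gnmt, glycine N-methyltransferase, had only 20 counts in induced and 28 in untreated control cells. Gm26904, a lincRNA whose body spans Rpl7l1 on the plus strand, had at most 1 count in any library. Ptcra, the pre-T-cell receptor alpha chain, had 0 counts in induced and 3 in untreated control cells.

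In the repressor induction none of the 9 was called by edgeR, DESeq2 (no adjusted p for 1 of them) or limma-voom, and 0 had an unadjusted p below 0.05 in edgeR. In this comparison edgeR called 9.81% of all tested genes, so 0 of 9 does not set the neighbours apart. In the activator induction 8 of 9 were called, 5 higher and 3 lower, beside 75.3% of all tested genes. Gnmt rose by a log2 fold change of 2.74 (1.93 ± 0.188 CPM in induced and 0.267 ± 0.13 CPM in untreated cells, SD, n = 3 each; edgeR adjusted p = 3.4e-12). Mea1 had 0.49, Bicral 0.41, Ppp2r5d 0.22 and Pex6 0.17, and each of these 4 turned negative with mitochondrial scaling, Pex6 also with total counts, with which Ppp2r5d was at 0.00139 and not called. With total counts 3 of the 9 neighbours were called higher and 3 lower. Klhdc3 fell by 0.422, Rrp36 by 0.238 and Cnpy3 by 0.137 on the log2 scale. Rrp36 lost its call with upper quartiles, at -0.134. Cnpy3 lost its call with upper quartiles, at -0.0333, with DESeq2 size factors in edgeR, at -0.0942, in DESeq2, at -0.0977, and without untreated activator replicate 3 or induced activator replicate 1, at -0.09 and -0.0962. Pex6 lost it without untreated activator replicate 2, at 0.114, and without the filter on low counts, at 0.136. The gene 2310039H08Rik, at 0.20 and not called, was called without untreated activator replicate 3 or induced activator replicate 1, at 0.275 and 0.267, with DESeq2 size factors or upper quartiles in edgeR, at 0.246 and 0.306, and with at least 10 counts in every library, at 0.226. Ptcra had 14, 5 and 4 counts in induced and 1, 0 and 0 counts in untreated activator libraries.

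**Figure D4:**
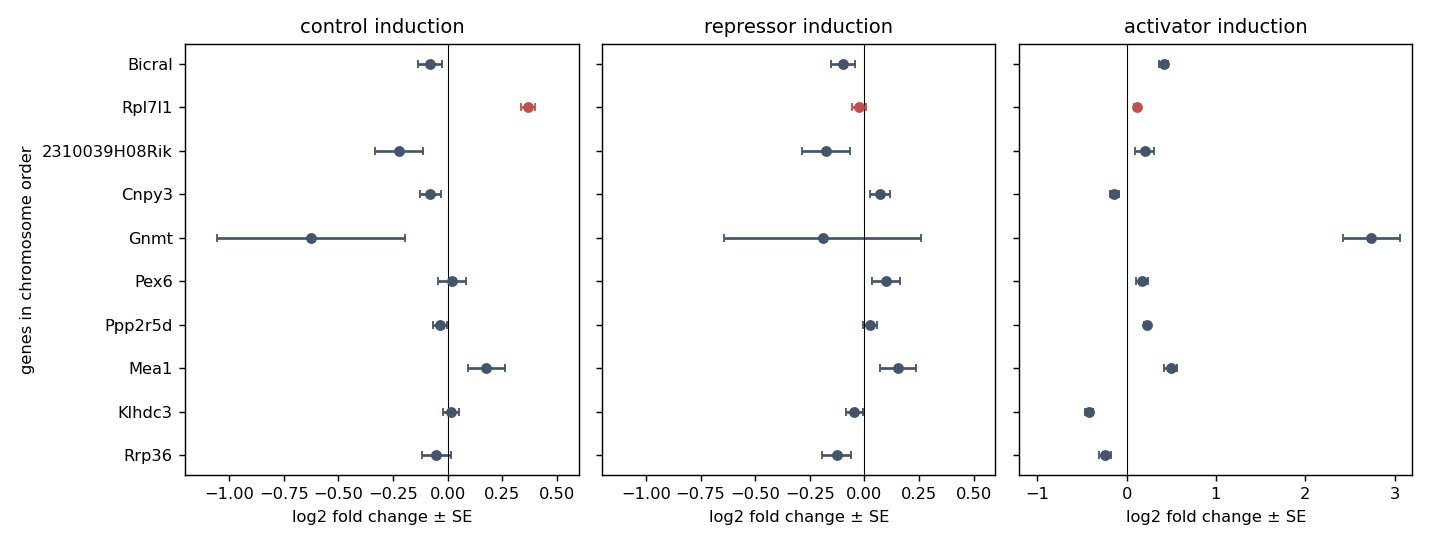
Log2 fold change on induction, with its standard error, of Rpl7l1 (red) and the 9 tested neighbours in their order along the chromosome, in the control, repressor and activator line. The activator panel has a wider axis. In the control line Rpl7l1 lies at 0.37 and the nearest tested genes on each side, Bicral and 2310039H08Rik, at -0.08 and -0.22.

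The counts of Rpl7l1 per summed count of the 9 neighbours also needed no scaling. The ratio was 0.448 ± 0.015 in induced and 0.339 ± 0.011 in untreated control cells (SD, n = 3 each). It was 0.332 ± 0.0062 in induced and 0.339 ± 0.0097 in untreated repressor cells (SD, n = 3 each). These control and repressor values are descriptions, since they hold the counts that chose the gene. In the activator line the ratio was 0.39, 0.391 and 0.371 in induced and 0.372, 0.388 and 0.361 in untreated libraries, which overlapped, with a log2 difference of 0.0413 (exact permutation p = 0.3).

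The other genes of ribosome assembly were read from 4 lists. Among 59 tested assembly factors of the large subunit, the class to which yeast Rlp7 belongs, 0 were called higher and 1 lower in the control induction, with a median log2 fold change of -0.0233 against 0.00279 over all tested genes. At an unadjusted p below 0.05 edgeR had 5 of them. Over all 16216 tested genes edgeR called 0.253% higher and 0.21% lower, and 1741 had an unadjusted p below 0.05. The largest value among the 59 was 0.0982, below the 0.37 of Rpl7l1. The called gene was the helicase Ddx51, which acts in rRNA maturation. It had 48.6 ± 1.85 CPM in induced and 54.8 ± 2.29 CPM in untreated control cells (SD, n = 3 each), a log2 fold change of -0.18 (edgeR adjusted p = 0.0326). DESeq2 gave it no adjusted p. It was not called in limma-voom, with total counts or mitochondrial scaling, or without induced control replicate 1 or 3 or untreated control replicate 1 or 2, at -0.155 to -0.218.

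Of 47 tested proteins of the large subunit, 0 were called in the control induction by edgeR, DESeq2 (no adjusted p for 3 of them) or limma-voom. In edgeR 3 had an unadjusted p below 0.05, and the median was 0.0105, with values of -0.331 to 0.103. With total counts in place of TMM, edgeR called 1 of the 47 higher. The small-subunit processome is the complex in which the small subunit is assembled. Of its 49 tested genes 0 were called by edgeR, DESeq2 (no adjusted p for 23 of them) or limma-voom. In edgeR 7 had an unadjusted p below 0.05, and the median was -0.0295, with values of -0.184 to 0.166. Over all 16216 tested genes edgeR called 0.463%, and 1741 had an unadjusted p below 0.05, so these counts do not set the lists apart. Rpl7l1 was above all members of each list, but it was chosen for its rise in this comparison, so its place there is a description only.

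In the repressor induction 9 of the 59 assembly factors were called lower and 0 higher, beside 4.59% of all tested genes called lower and 5.21% higher. Npm1, the nucleolar chaperone nucleophosmin, had 904 ± 30.4 CPM in induced and 1030 ± 4.74 CPM in untreated repressor cells (SD, n = 3 each), a log2 fold change of -0.19 (edgeR adjusted p = 4.54e-08). Rrp1b, a nucleolar factor, had -0.17 (edgeR adjusted p = 0.000239). The processome list had 11 of 49 lower and 0 higher, with Fcf1, a pre-rRNA endonuclease, at -0.25 and Wdr3 at -0.15, and the large-subunit proteins had 2 of 47 lower and 0 higher, with Rplp0 at -0.13 and Rpl10 at -0.11. With total counts 4 assembly factors, 3 processome genes and 2 large-subunit proteins were lower, and with mitochondrial scaling 3, 1 and 1 of them; Rplp0, Rpl10 and Wdr3 then lost their calls, at -0.138, -0.118 and -0.164. Fcf1 lost its call without untreated repressor replicate 2, at -0.211, and Wdr3 without that library or induced repressor replicate 1, at -0.122 and -0.124.

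In the activator induction 45 of the 47 large-subunit proteins were called higher and 1 lower, beside 38.2% of all tested genes called higher and 37.2% lower, with a median of 0.557. Rpl37 had 0.64 and Rpl13 0.61. Rpl7l1, at 0.12, lay above only 3 of the 47. Of the 59 assembly factors 19 were called higher and 31 lower, with a median of -0.136. Urb2, a ribosome assembly factor, had 42.5 ± 0.44 CPM in induced and 119 ± 2.26 CPM in untreated activator cells (SD, n = 3 each), a log2 fold change of -1.49 (edgeR adjusted p = 7.18e-50), and Ppan had -1.15. Rpl7l1 lay above 43 of these 59. The processome list had 17 higher and 20 lower, with Imp3 at -1.11 and Utp3 at -1.10. With total counts the large-subunit proteins had 42 higher and 2 lower, the assembly factors 5 higher and 44 lower and the processome list 1 higher and 35 lower. With upper quartiles the processome list had 19 higher and 15 lower. With mitochondrial scaling all members of the 3 lists were called lower, with medians of -0.188 for large-subunit proteins, -0.878 for assembly factors and -0.797 for the processome.

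**Figure D5:**
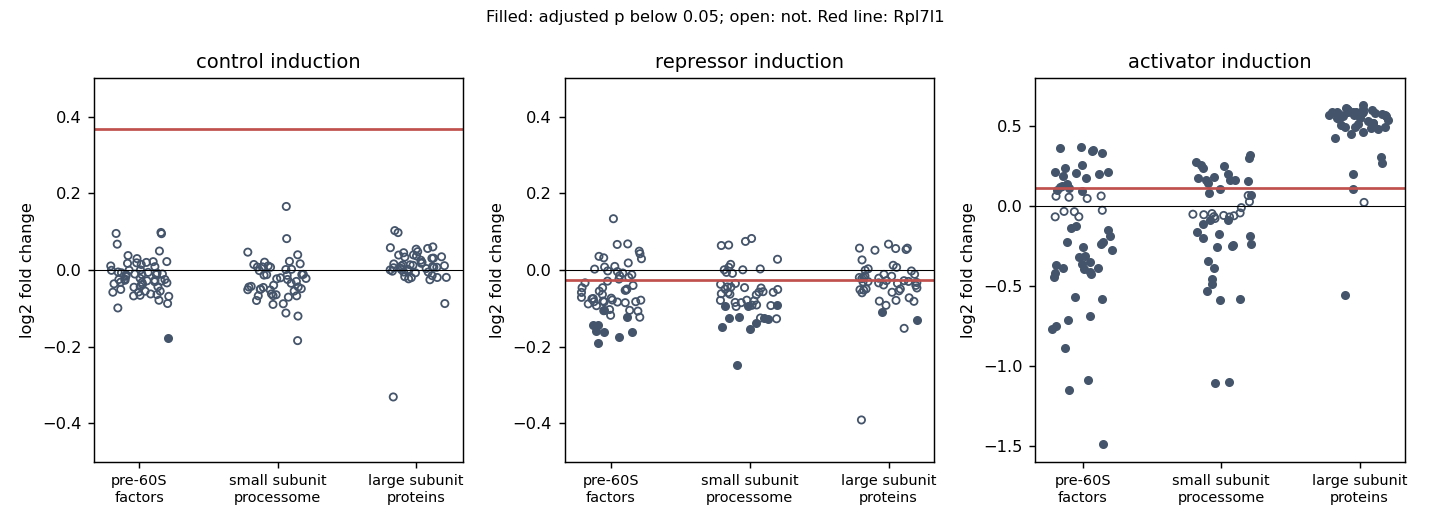
Log2 fold change on induction of each tested member of 3 ribosome lists in the control, repressor and activator line, filled where the adjusted p was below 0.05, with the value of Rpl7l1 as a red line; the activator panel has a wider axis. In the control line every point lies below the red line at 0.37, and in the activator line most large-subunit proteins lie above it and most assembly factors below it.

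Among 7 other paralogues of ribosomal proteins 4 were tested. In the control induction 0 of 4 were called by edgeR, DESeq2 (no adjusted p for 3 of them) or limma-voom. Over all tested genes edgeR called 0.463% there. At an unadjusted p below 0.05 edgeR had 1, Rps27l at 0.12, beside 1741 of all 16216 tested genes. In the repressor induction 0 were called by these tools (no adjusted p in DESeq2 for 1 of them) and 0 had an unadjusted p below 0.05. Of all tested genes edgeR called 9.81% in that comparison. In the activator induction all 4 were called higher in edgeR, beside 38.2% of all tested genes. Rpl22l1 had 0.33, Rpl36al 0.36 and Rps27l 0.49, and these 3 turned negative with mitochondrial scaling. With total counts Rpl22l1 was at 0.105 and not called. The fourth, Rps4l, is annotated as a transcribed processed pseudogene, and reads it may share with other genes were not looked for. It had 57, 44 and 44 counts in the induced and 0 counts in each untreated activator library. This was at least 61.7-fold higher against a floor of 3 counts over the untreated group, and Rps4l was not called in DESeq2. Rpl3l, Rpl10l and Rpl39l had at most 4 counts in any group and were not tested.

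The genes whose log2 CPM followed that of Rpl7l1 most closely over all 18 libraries were Acad8 with a Pearson r of 0.803, Map3k20 with 0.798, Tuba4a with 0.753, Mcm8 with 0.742 and Itih2 with 0.734. Over the same libraries Rpl7 had 0.353. Over the 12 libraries of the control and repressor lines the closest were Thbs1 with 0.947, Samd8 with 0.937, Rrm1 with 0.936, Itgav with 0.893 and Rab6b with 0.892, and Rpl7 had 0.0214. These values describe likeness only: the libraries share groups, and 3 high libraries can set such an r. Thbs1, the matrix protein thrombospondin, had 1700 ± 20.9 CPM in induced and 1540 ± 36.6 CPM in untreated control cells (SD, n = 3 each). In the activator line it had 443 ± 26.4 CPM in induced and 945 ± 15.8 CPM in untreated cells (SD, n = 3 each), where Rpl7l1 had 147 and 135 CPM.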

How the data were processed

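The authors deposited whole-number read counts per gene ID from stranded, rRNA-depleted total RNA libraries, per the labels; the build was mm10, per the submitters' processing notes. The aligner, counter, annotation and use of strand: not given in the sources used here. Symbols came from GENCODE M21 (47310 of 47937 IDs matched without version; the rest held 0.0423% of counts), so gene models may differ from those counted.

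Counts were fitted in edgeR 4.0.16 (R 4.3.3; robust quasi-likelihood, TMM, filterByExpr, 1 coefficient per group, 18 libraries, 12 residual degrees of freedom) and p-values adjusted by Benjamini-Hochberg over 16216 genes. The script was tested on simulated data. SE is the fold change over the square root of F; intervals use the 12 degrees of freedom. Levels are TMM-scaled CPM. DESeq2 1.42.0, limma 3.58.1 (voom), other scalings, filters, replicate blocks and leave-outs were alternatives. Motif and word searches used RefSeq promoters and GENCODE transcripts.

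The gene and lists were chosen with earlier results of these data known. The rule for named genes took Rpl7l1, Rpl7, neighbours within 100 kb, ribosomal protein paralogues, the 2 called members of each list with the largest change per induction and the 5 genes most correlated with Rpl7l1; Rmrp, Ccn1, Ccn2 and Gm10800 were named after their values were seen.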

Additional observations from a re-analysis of the deposited data

Results flagged for a closer look

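The tested context genes were Rpl7, 9 neighbours and 4 ribosomal protein paralogues. For 10 of them the change on induction differed between the activator and the control line by edgeR's interaction test with Benjamini-Hochberg adjustment. In this test 63.7% of all tested genes were called, so such a call was the common outcome there and does not set these genes apart. The log2 fold change of the activator line minus that of the control line was 0.568 for Rpl7 (adjusted p = 1.25e-22). Among the neighbours of Rpl7l1 it was 3.37 for Gnmt, 0.494 for Bicral, 0.424 for 2310039H08Rik, 0.315 for Mea1, 0.258 for Ppp2r5d and -0.438 for Klhdc3. Among the ribosomal protein paralogues it was 0.378 for Rps27l, 0.347 for Rpl22l1 and 0.329 for Rpl36al. The adjusted p was at most 0.0125 for all 10. With mitochondrial scaling 8 of the 10 changed sign (Rpl7 at -0.134) and Gnmt and Klhdc3 kept theirs, at 2.67 and -1.14. With total counts 5 of the 10 lost their call: 2310039H08Rik at 0.182, Rpl22l1 at 0.106, Rpl36al at 0.087, Mea1 at 0.0708 and Ppp2r5d at 0.0155. For Rpl7l1 itself the difference was -0.252, given without a test because the control line chose the gene. The lines were induced for 6 h and 24 h, so effector and time cannot be told apart. Groups of 3 libraries are too small for the check of single libraries that stand apart.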

How the results depend on the processing

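Of 3100 alternatives for single genes other than Rpl7l1 and Rpl7, 3013 kept their side of the threshold and, where called, their direction. Another 25 changed direction, 36 lost a call and 14 gained one, and 12 stayed uncalled but moved in value. DESeq2 gave no adjusted p for 22 more. In the activator induction total counts gave log2 fold changes of -0.107 for Rpl7l1, -0.0494 for Pex6, -0.0505 for Acad8, -0.19 for Map3k20 and -0.181 for Samd8, and mitochondrial scaling -0.626 for Rpl7l1, -0.171 for Rpl7, -0.255 for Mea1, -0.518 for Ppp2r5d, -0.569 for Pex6, -0.544 for 2310039H08Rik, -0.331 for Bicral, -0.412 for Rpl22l1, -0.38 for Rpl36al, -0.25 for Rps27l, -0.409 for Npm1, -0.154 for Rplp0, -0.248 for Rpl10, -0.105 for Rpl37, -0.128 for Rpl13, -0.444 for Fcf1, -0.572 for Acad8, -0.708 for Map3k20, -0.739 for Tuba4a, -0.443 for Mcm8, -0.701 for Samd8, -0.391 for Rrm1 and -0.459 for Itgav; the shift of the median gene is given with the Rpl7l1 result. Upper quartiles shifted that median by 0.108. The activator minus control difference of Rpl7l1 was -0.205 with DESeq2 and with its size factors, -0.15 with upper quartiles, -0.496 with total counts and -0.956 with mitochondrial scaling. With total counts its repressor value was 0.00208, and with mitochondrial scaling its untreated activator minus control difference was 0.0332. Rpl7 in the control induction, never called, was -0.00344 with DESeq2 size factors, -0.00347 in DESeq2, -0.037 with mitochondrial scaling, -0.000993 without the filter, -0.000437 with at least 10 counts in every library and -0.002 with the control groups alone. With mitochondrial scaling 32 genes were called in the control and 717 in the repressor induction. The causes were not tested.

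Leaving out 1 library at a time gave Rpl7l1 0.0991 to 0.131 in the activator, 0.343 to 0.402 in the control and -0.0411 to -0.0143 in the repressor induction, and -0.428 to -0.369 for repressor minus control, -0.291 to -0.232 for activator minus control, -0.411 to -0.368 for induced repressor minus induced control, -0.0202 to 0.0336 for untreated repressor minus control and 0.0904 to 0.144 for untreated activator minus control. Rpl7 had -0.0104 to 0.0228 in the control, -0.0531 to -0.0148 in the repressor and 0.526 to 0.589 in the activator induction, and the log2 ratio of both genes changed by -0.485 to -0.412 in the activator line. Genes called were 35 to 160, 1077 to 1812 and 11762 to 12520 in the control, repressor and activator induction.

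Same-numbered induced and untreated libraries of a line had deviations correlated at -0.023 to 0.025, so no shared deviation was seen. Whether they were prepared as pairs cannot be told from this. With the replicate block across all groups or within each line Rpl7l1 had 0.119 in the activator induction, and genes called in the control induction were 112 and 63, against 75 without a block. Depth limits Gnmt, Ptcra and Gm26904, whose counts were few.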
